A study of Mus musculus with 2 samples.

Results

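The distal imprinted microRNA cluster of mouse chromosome 12, which runs from Mir379 past Mir410, was measured in the stomach of mouse embryos by sequencing of small RNA. Its members were chosen by position alone: every miRNA gene with a row in the count tables that GENCODE places on the plus strand of chromosome 12 of mm10 with a start between 109705000 and 109750000. This gave 34 of the 1973 miRNA genes measured, from Mir379 at chr12:109709060-109709125 to Mir3072 at chr12:109747878-109747960, a stretch of 38901 bp. The rule takes in Mir3072, which lies beyond Mir410, and the predicted gene Gm27379. Mir299a, Mir380, Mir376a, Mir376b and Mir409 lie in the same stretch on the plus strand in GENCODE M21. They have no row of their own and are not among the members. Of the 34 members, 30 had at least 10 sense-strand counts in both libraries.

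The study holds 1 group: whole stomach of embryos of the B6NCrl strain at embryonic day 15.5, with no treatment named. Replicate 1 was made from a pool of 78 embryos and replicate 2 from a pool of 62, both of mixed sex, so each value is an average over many animals and over all cell types of the organ. RNA below 30 nt was sequenced. Comparisons were therefore possible between genes and between the 2 pools, not between conditions. Between genes, levels are read counts. Any effect of a sequence on how well it was captured would be shared by both pools. The SD between the pools does not measure such an effect, and it was not tested. A p-value between the pools sets their difference against counting error only.

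As background, the Dlk1-Dio3 region is imprinted: its protein-coding genes are expressed from the paternal chromosome, and its long noncoding RNAs Meg3, Rian and Mirg, with the miRNAs along them, from the maternal chromosome. The miRNA hairpins are cut from long transcripts, first in the nucleus and then in the cytoplasm, and 1 of the resulting arms, 5p or 3p, is usually kept. Bases 2 to 8 of the mature miRNA, the seed, pair with target messages, so miRNAs with the same seed can share targets. The cluster is found in placental mammals. It is best known from neurons, where Mef2 drives its transcription and miR-134 acts at dendrites, and from the metabolic adaptation of newborn mice.

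RefSeq (GRCm38.p6, the same assembly) held mature sequences for 33 of the 34 members, 61 in all, with 56 distinct seeds. Only Gm27379 was unmatched. Both arms were listed for 28 members, and 1 sequence only for Mir376c, Mir487b, Mir539, Mir485 and Mir453. Seeds on arms that are not listed could not be compared. Among the listed sequences, the 5 seeds that more than 1 member carried joined 9 members. They are shown as the seed families found among the members. Capitals mark the seed, and each sequence runs 5′ to 3′.
miR-379-5p: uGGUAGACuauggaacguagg
miR-1193-5p: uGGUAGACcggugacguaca
miR-379-3p: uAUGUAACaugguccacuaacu
miR-411-3p: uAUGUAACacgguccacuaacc
miR-1197-5p: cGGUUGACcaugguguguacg
miR-758-5p: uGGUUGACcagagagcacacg
miR-494-5p: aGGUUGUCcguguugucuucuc
miR-410-5p: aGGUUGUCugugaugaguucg
miR-496a-5p: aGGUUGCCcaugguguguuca
miR-453: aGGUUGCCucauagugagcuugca
No gene outside the cluster carried any of these 5 seeds in the RefSeq table. Of the 33 members, 10 shared a seed on some arm with a gene elsewhere, for example Mir1193 with Mir370 of the same imprinted region and Mir410 with the 4 Mir344d and Mir344e genes. The seed of miR-376c-5p was shared with Mir376b, a gene of the cluster with no row of its own in the count tables. For 16 members no listed arm had a seed found in another gene.

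The most abundant members and the 1 member that differed between the pools carried the following mature sequences, again with the seed in capitals. RefSeq listed only the 5p sequence of Mir487b, so its 3p sequence is not printed. Counts do not show which arm the reads of a gene came from.
miR-411-5p: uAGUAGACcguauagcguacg
miR-487b-5p: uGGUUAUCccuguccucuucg
miR-369-5p: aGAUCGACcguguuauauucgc
miR-369-3p: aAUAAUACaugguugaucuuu
miR-541-5p: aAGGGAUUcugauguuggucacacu
miR-541-3p: uGGCGAACacagaauccauacu
miR-382-5p: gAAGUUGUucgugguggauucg
miR-382-3p: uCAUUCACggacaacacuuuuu
miR-495-5p: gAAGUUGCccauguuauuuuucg
miR-495-3p: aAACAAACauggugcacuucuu

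Apart from shared seeds, some 3p arms had a run of letters in common. The letters ACACGG or ACAUGG, read on the mature strand only and chosen after the sequences were read, were present in 10 of the 29 3p sequences of the members (34.5%) and in 4 of the 702 3p sequences of all other genes (0.570%). In 8 of the 10 they began at base 7, overlapping the last bases of the seed, and in the other two at base 9. They are printed here with those letters in capitals, in chromosome order from Mir379 to Mir369. Not every part of that stretch had them: no 3p sequence listed for a gene between Mir495 and Mir485 did.
miR-379-3p: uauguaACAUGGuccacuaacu
miR-411-3p: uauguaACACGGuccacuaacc
miR-1197-3p: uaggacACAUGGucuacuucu
miR-323-3p: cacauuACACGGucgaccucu
miR-494-3p: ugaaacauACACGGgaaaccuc
miR-495-3p: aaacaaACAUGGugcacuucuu
miR-485-3p: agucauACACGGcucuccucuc
miR-154-3p: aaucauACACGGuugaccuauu
miR-496a-3p: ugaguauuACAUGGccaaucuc
miR-369-3p: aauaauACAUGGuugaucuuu
Carrying these letters did not go with 1 level of expression: the 10 genes ranged from 2.81 CPM for Mir1197 to 11624 CPM for Mir411, with a median of 451 CPM, against a median of 119 CPM over the 19 other members with a 3p sequence. CPM is the sense-strand count per 1000000 summed sense-strand miRNA gene counts of its library. On the 5p side the letters GGUU, chosen like the 3p letters after the sequences were read, stood in 12 of 31 member sequences (38.7%). They stood in 12.1% of the 696 5p sequences of other genes. In 6 of the 12 member sequences they began at base 2, inside the seed. The letters CGG, a part of ACACGG, were counted as well, in 21.3% of all 61 member sequences and 14.0% of the 1677 others. A match describes letters and is not a binding site.

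The cluster, counted by the 34 members that have a row, held about 1 in 20 of the counted miRNA reads. Its members summed to 302377 of 5988677 sense-strand counts in replicate 1, or 5.05% (95% Wilson interval 5.03 to 5.07), and to 324822 of 6675498 in replicate 2, or 4.87% (4.85 to 4.88). The mean was 4.96% ± 0.130 (SD, n = 2). These intervals, like all others here, take in counting error alone: amplified reads need not be separate molecules. In a whole organ, fewer cells that express the cluster and less RNA per cell cannot be told apart.

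Levels among members ran over several orders of magnitude, and a few members held most of the counts. The 6 highest held 78.4% of the members' summed counts in replicate 1 and 80.5% in replicate 2, and 10 members held 90% in both. Mir411 (chr12:109710175-109710256), second in position, was highest in both libraries, with 72606 and 74261 counts, or 12124 and 11124 CPM. It alone made up 23.4% ± 0.813 of the members' summed counts (SD, n = 2). Mir487b (chr12:109727333-109727414) followed with 44832 and 50021 counts, 7486 and 7493 CPM.

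The next ranks changed places between the pools. Mir379 (33727 and 34146 counts, 5632 and 5115 CPM) stood above Mir369 in replicate 1 and below it in replicate 2. Mir369, whose 3p miRNA is known from work on the translation of messages with AU-rich elements, had 33110 and 44343 counts, or 5529 and 6643 CPM. Mir382 (4410 and 4285 CPM) and Mir541 (4383 and 4493 CPM) likewise swapped. The order within each of these pairs is thus not larger than the spread between the pools.

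Mir381, at 2462 and 2108 CPM, was clearly below these 6 in both libraries. Then came Mir154, at 1389 and 1162 CPM, Mir134, the dendritic miRNA, at 1317 and 1134 CPM, and Mir1193, at 1116 and 1108 CPM. The ranges of Mir154 and Mir134 overlapped. These 10 from Mir411 to Mir1193 were the members with a mean of at least 1000 CPM.

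Between 100 and 1000 CPM stood 13 members. By the mean, Mir300 (619 and 524 CPM) and Mir543 (490 and 597 CPM) led them, with overlapping values. In falling order of the mean they were followed by Mir494, Mir323, Mir376c, Mir329, Mir485, which is known from work on synapses, Mir667, Mir496a, Mir495, Mir679, Mir377 and Mir410, which is known from pancreatic beta cells. The last 3 had means of 119, 112 and 112 CPM, and their ranges of 108 to 130, 110 to 114 and 110 to 113 CPM overlapped. Other near ranks changed places between the pools. In replicate 1 Mir494 (514 CPM) stood above Mir543, and in replicate 2 Mir323 (455 CPM) stood above Mir494 (404 CPM). Another 6 had means between 10 and 100 CPM. In falling order they ran from Mir539 at 93.8 and 86.6 CPM through Mir412, Mir668, Mir666 and Mir3072 to Mir758 at 25.05 and 18.3 CPM. In replicate 2 Mir412, at 86.7 CPM, stood above Mir539. Mir1197 and Mir544 lay between 1 and 10 CPM, and 3 members under 1.

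At the bottom, Mir453 had no count in either library, which allows up to 0.501 CPM in replicate 1 and 0.449 CPM in replicate 2 (3 counts of each library). Mir654 had 0 and 1 counts, Gm27379 had 1 and 0, and Mir544 had 12 and 8. Mir1197 had 22 and 13 counts. These 5 genes were the lowest of the members in both pools. Of them, Mir1197 alone had at least 10 counts in both libraries. Gm27379 and Mir544 lie next to each other, and the other 3 each stand between members of higher counts. Across the members with at least 10 counts in both libraries, Mir411 exceeded Mir1197, the lowest of them, by 11.61 ± 0.38 on the log2(CPM + 1) scale (SD, n = 2).

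**Figure D1:**
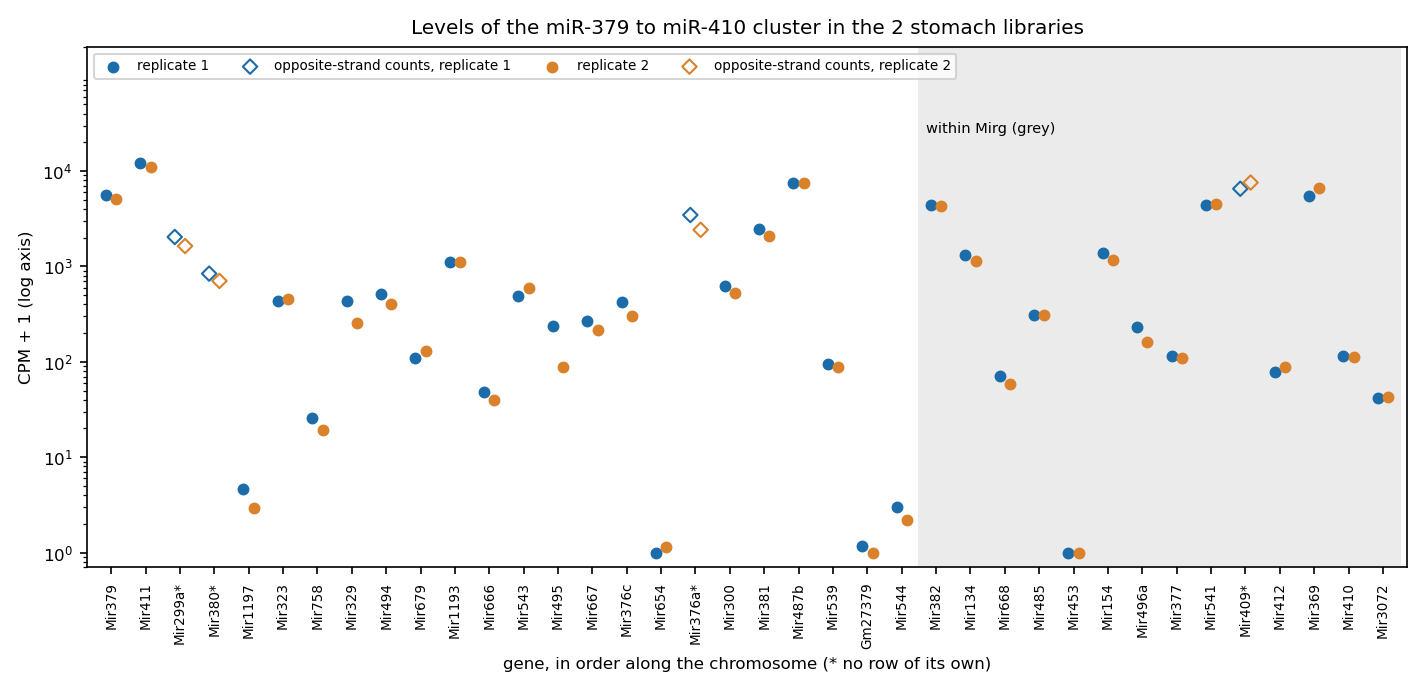
Level of each member in both libraries (CPM + 1, log axis) in the order of the genes along chromosome 12. Filled points are sense-strand counts, open diamonds are opposite-strand counts at rows that overlap a gene marked with an asterisk, scaled by the same totals. The grey area marks the members within Mirg. The 2 libraries lie close together for nearly every gene, while neighbouring genes differ up to the step from Mir411 to Mir1197.

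Level did not follow position in a steady way. Spearman's rho of the mean log2(CPM + 1) against the start was -0.12 over the 34 members, which share the libraries and are not replicates. Median levels were 393 CPM in the first 12 members by position, 362 CPM in the middle 11 and 112 CPM in the last 11, yet each of these stretches held at least 3 members of 1000 CPM or more. Over the 33 pairs of members next to each other in the tables the median step was 3.90 on the log2 scale, and 19 steps were of 3 or more. The median SD of a step between the pools was 0.19, so most steps were many times the spread between the pools.

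The 3 largest steps each had 1 of the 5 lowest genes on one side. From Mir411 to Mir1197, 2060 bp downstream, the level dropped by 11.61 ± 0.38 (SD, n = 2). Mir299a and Mir380 lie between these genes and have no row of their own on this strand. From Mir544 to Mir382, across the longest gap of 4368 bp, it rose by 10.72 ± 0.29. From Mir453 to Mir154 it rose by 10.31 ± 0.18, and with Mir453 at 0 this value depends on the 1 CPM added. Genes close together could differ widely too: Mir679 and Mir1193, 20 bp apart, differed by 3.21 ± 0.19, and Mir412 and Mir369, 49 bp apart, by 6.20 ± 0.06. These pairs were chosen after their values were seen.

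Of the members, 13 lie within Mirg, the annotated long noncoding RNA of this end of the region: 5 in its exons, 4 in its introns and 4 in an exon of some transcripts and an intron of others. The other 21, from Mir379 to Mir544, lie upstream of it with no host gene on their strand in GENCODE M21. Both groups held high and low genes. The median was 196 CPM within Mirg and 344 CPM upstream, and 5 genes in each reached 1000 CPM. Mir382 and Mir134 were exonic. Mir154, Mir541 and Mir496a were intronic, and so was Mir453, which had no counts.

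Sharing a seed did not mean sharing a level. Counts are per gene and do not tell the 5p from the 3p arm, so a level belongs to both arms together. Mir411 exceeded Mir379, with which it shares the seed of the 3p arm, 2.16-fold in mean CPM, or by 1.11 ± 0.01 on the log2(CPM + 1) scale (SD, n = 2). This was the pair closest in level of the 5. Mir379 exceeded Mir1193, which has its 5p seed, by 2.27 ± 0.09. Mir494, at 514 and 404 CPM, exceeded Mir410, at 113 and 110 CPM, by 2.02 ± 0.22.

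Both genes of the seed shared by miR-758-5p and miR-1197-5p were low. Mir758 had 150 and 122 counts, or 25.05 and 18.3 CPM, and exceeded Mir1197 by 2.59 ± 0.16. The widest gap was between Mir496a, with 1385 and 1072 counts (231 and 161 CPM), and Mir453 at 0. Each of the 5 differences was larger than its SD between the pools, and the higher gene was the same in both libraries.

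**Figure D2:**
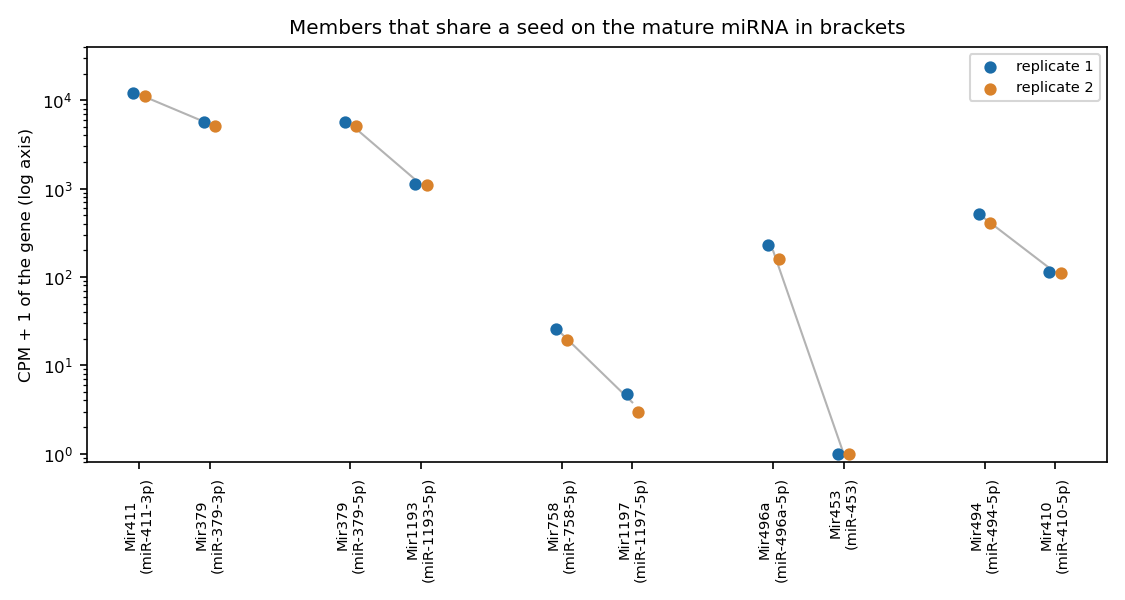
Level of the genes (CPM + 1, log axis) in the 5 groups that share a seed on the mature miRNA named in brackets. Points are the 2 libraries, and each grey line joins the mean levels of the genes within a group. The partners stand apart in every group, from 1.11 on the log2 scale for Mir411 and Mir379 to Mir496a against Mir453 at 0.

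The sequences bear on how well members could be counted. Reads that match several places are a separate line of the tables, so a gene with a near-identical copy may be counted too low. By edit distance between mature sequences, miR-376c-5p came within 1 edit of miR-376b-5p, and miR-379-3p and miR-411-3p lay 2 edits apart. The comparison covers the listed arms only, which are both arms for 28 members and 1 arm for Mir376c, Mir487b, Mir539, Mir485 and Mir453. Among these no other member had a mature sequence within 2 edits of another gene's, and none was found whole in the RefSeq hairpin of another gene. Mir376c stood at 420 and 304 CPM and its level is uncertain for this reason. Whether shared reads lowered it was not tested.

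Between the pools the members kept nearly the same order: Spearman's rho of the levels in replicate 1 against those in replicate 2 was 0.99 over 34 genes. The SD between the pools was 11.4% of the mean in the median detected member, beside 12.99% over all 369 genes with at least 10 counts in both libraries. In 13 of the 30 detected members it was at most 10%. Mir487b, at 7486 and 7493 CPM, was among the steadiest. These spreads hold for scaling by library totals. With TMM the log2 ratio of Mir487b was 0.13 and with DESeq2 size factors 0.16.

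Of the 31 members with at least 10 summed counts, 1 passed the test between the pools, or 3.23%, beside 5.79% of all 466 genes tested. The test was a two-sided exact binomial test with Benjamini-Hochberg adjustment over all genes, with a limit of 2-fold. Of the members, 0 were called higher in replicate 2, beside 0.644% of all genes, and 1 lower, beside 5.15%. That gene was Mir495 (chr12:109718754-109718816), whose 3p miRNA carries the letters ACAUGG shown above. It had 1433 counts in replicate 1 and 582 in replicate 2, or 239 and 87.2 CPM, giving a log2 ratio of -1.45, with a 95% Clopper-Pearson interval from -1.60 to -1.32 (adjusted p = 9.1e-103, exact binomial test). This was the lowest ratio among the members tested.

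The neighbours of Mir495 stayed within 2-fold. Mir543, 1420 bp upstream, stood at 490 and 597 CPM, with a log2 ratio of 0.28 (interval 0.22 to 0.35), the highest among the members tested. Mir667, 1189 bp downstream, stood at 266 and 215 CPM, with a ratio of -0.30. The mature 3p sequences of Mir543 and Mir495 are 4 edits apart.
miR-543-3p: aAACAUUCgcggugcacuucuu
miR-495-3p: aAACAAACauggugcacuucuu
Capitals again mark the seed. With edgeR's exact test, which takes the dispersion between the same pools as error, Mir495 had an adjusted p of 0.14. No member passed, beside 4 of all genes tested.

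The remaining 30 members tested had log2 ratios between -0.75 and 0.28, all inside the 2-fold limit. After Mir495 the lowest were Mir329, with 2584 and 1713 counts (-0.75), and Mir1197 (-0.67). The interval of Mir1197, computed without the added 1 CPM, ran from -2.03 to 0.14 and so past 0. Mir329 was named after its values were seen. Mir369 was higher in replicate 2 by 0.26 (0.24 to 0.29). With no fold limit 20 of 31 members passed (64.5%), beside 46.4% of all genes. The median level was 353 CPM in detected members and 126 CPM in all detected genes, and the part of this difference in the shares that passed was not tested.

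The members as a group moved with the rest of the miRNA genes. Their median log2 ratio was -0.14, and that of all genes tested -0.11, a gap of -0.03. The middle 50% of members lay between -0.33 and 0.01, and of all genes between -0.38 and 0.08. By library totals 9 members stood above 0 and 22 below. This split follows the scaling: with edgeR's TMM it was 15 and 16 and with DESeq2 size factors 16 and 15, since these scalings raise the ratios by 0.13 and 0.16. Over all genes, 24 calls were lower and 3 higher by library totals, 18 and 4 with TMM, and 16 and 6 with DESeq2 size factors. The median within Mirg was -0.04 over 12 genes and upstream of it -0.24 over 19, and Spearman's rho of the ratio against position was 0.32 over 31 members.

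**Figure D3:**
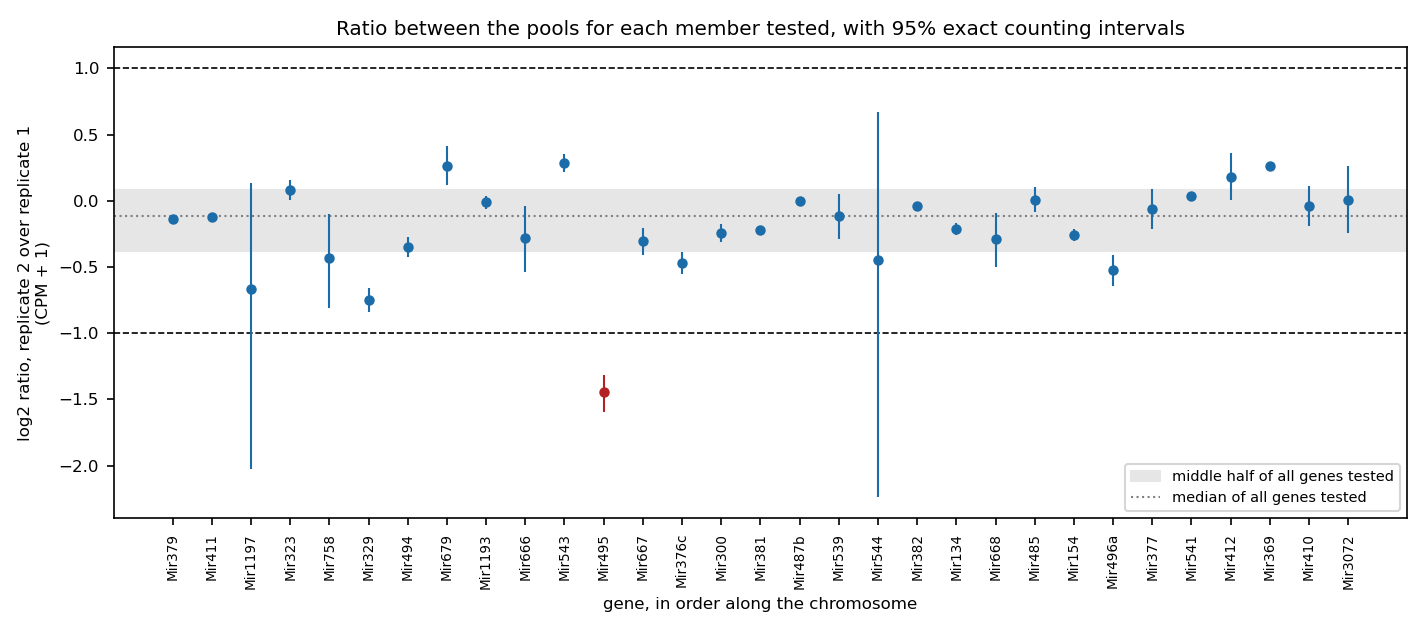
Log2 ratio of replicate 2 over replicate 1 (CPM + 1) of the 31 members tested, in chromosome order, with 95% exact intervals. The intervals were computed without the added 1 CPM. Dashed lines mark the 2-fold limit, the grey band the middle 50% of all 466 genes tested and the dotted line their median of -0.11. Mir495, at -1.45, is the 1 gene outside the dashed lines.

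Among marker miRNAs of cell types, the smooth muscle list held 18.3% ± 0.346 of counts (SD, n = 2) and the miR-200 list of epithelium 4.33% ± 0.0222. Lists that differed more between the pools were stratified epithelium, with 1.72% and 1.18%, and glandular epithelium, with 1.81% and 2.91%. The neuron list held 0.147% in replicate 1 and 0.126% in replicate 2, with 6 of its 10 measured genes detected and Mir9-2 and the 3 Mir124a copies at 0. Both are multi-copy genes, and reads that match several places were not counted to a gene. Hepatocyte Mir122 held 0.244% and 0.0757%, and the 3 red blood cell genes 0.0727% and 0.0345%. The part of these differences in the members' ratios was not tested.

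Against other genes, the cluster was counted at higher levels than most. At least 10 counts in both libraries were found for 88.2% of members, for 14 of 16 genes (87.5%) of the more proximal Dlk1-Dio3 list (16 of 20 listed genes had a row), and for 17.5% of the other 1939 miRNA genes. At least 100 CPM was reached by 67.6%, 75% and 8.97% of them. The 1939 other genes take in the proximal list. Of the 1939, 1246 had no count in either library, and 2 of these were proximal genes. The same held for 1 member, and all of these stand in the percentages. Among genes with at least 10 counts in both libraries the median was 353 CPM in members, 510 CPM in the proximal list and 108 CPM in the other genes. By mean level the proximal genes were led by 3 that lie antisense to the imprinted gene Rtl1: Mir127 (9058 and 9041 CPM), Mir431 (3391 and 3783 CPM) and Mir434 (2040 and 1338 CPM). Mir337 (1538 and 1610 CPM), named after its values were seen, stood below Mir434 in replicate 1 and above it in replicate 2. The list held 1.97% ± 0.0380 of counts (SD, n = 2) over fewer genes, and their median log2 ratio was -0.03, with 0 of 14 past the test. They are described here, with no test of a difference from the cluster.

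**Figure D4:**
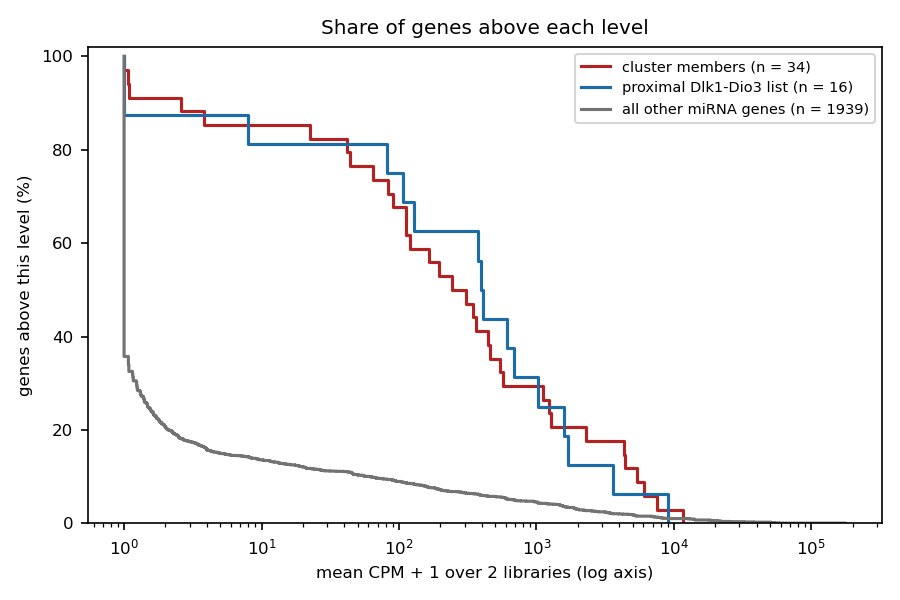
Share of genes (%) above each mean level (CPM + 1, log axis) for the 34 members, the 16 proximal genes and the 1939 other miRNA genes. The 1939 take in the proximal genes. Members and proximal genes run close together, with 67.6% and 75% at or above 100 CPM, against 8.97% of the other genes. Of the other genes, 1246 had no count in either library.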

How the data were processed

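MicroRNA-seq of E15.5 mouse stomach was available as 1 table of whole-number read counts per miRNA gene for each of 2 libraries; the authors deposited raw counts for mm10 and GENCODE M4, per the deposited description files. Which aligner, trimmer and counter were used is not given in the sources used here. Without a header, columns were read from their values: counts of both strands, which add up the remaining pair, then sense and opposite strand, the sense column holding nearly all counts of known miRNA genes. Lines naming no gene were kept out of totals; reads matching several places were 25.5% and 27.0% of all reads, unmapped reads 18.0% and 16.2%, and reads outside miRNA genes 2.92% and 2.26%. Identifiers were matched to GENCODE M21 without version (1894 of 1973).

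Counts were scaled to CPM of summed sense counts, and ratios were taken with 1 CPM added. Genes with at least 10 summed counts were compared by an exact binomial test (adjusted p under 0.05 and 2-fold). Ratios have 95% Clopper-Pearson intervals, which were computed from the counts without the added 1 CPM. Interval and ratio therefore measure slightly different quantities, mainly at low counts. The binomial step was tested on simulated data with counting noise only, so that test does not cover the further spread between real pools. Alternatives changed the scaling, minimum, fold limit, test, pseudocount, strand or copies, or left out a replicate; 3 were added after seeing the data. Members and lists were chosen with earlier results of these data known. Named are the 12 highest members, those called, those under 10 counts, seed groups, both sides of the 3 largest steps, and the 3 highest proximal genes. The software was Python 3.11.15 with scipy 1.17.1, and DESeq2 1.42.0 and edgeR 4.0.16 under R 4.3.3.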

Additional observations from a re-analysis of the deposited data

Results flagged for a closer look

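Counts on the opposite strand, which the comparisons above do not use, stood at 4 rows inside the cluster. Members themselves had 0 opposite-strand counts in both libraries. Summed over both libraries there were 89712 at Gm24321, 36878 at Gm25252, 23100 at Mir299b and 9733 at Gm25750, all above the 3 counts that a count of 0 allows. Each of these minus-strand genes overlaps a plus-strand miRNA gene of GENCODE M21 that was not analysed here as a gene of its own: Mir409, Mir376a, Mir299a and Mir380. Together they came to 77028 counts in replicate 1 and 82395 in replicate 2, or 25.5% and 25.4% of the members' own counts. On the CPM scale of the sense counts Gm24321 stood at 6527 and 7584, above Mir369 and below Mir411 in both libraries. Opposite-strand reads of a minus-strand gene lie on the plus strand, which is the strand of the overlapped genes. Sense counts were 0 in both libraries at Gm24321, Gm25252 and Gm25750, and 30 and 17 at Mir299b. The assignment of single reads to a gene was not tested.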

How the results depend on the processing

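The cluster's share of 4.96% became 4.80% with both strands counted, 10.6% with a total that leaves out the 10 most abundant other genes, 6.14% with the opposite-strand rows of the overlapped genes added (chosen after seeing the data), and 4.87 to 5.05% without either replicate. Detected members numbered 29 to 31 under every alternative, and 30 to 31 without either replicate. The 1 called member became 20 when the fold limit was dropped and 0 in edgeR's exact test. Mir495 kept its call in the others, with ratios of -1.45 to -1.29, and had -1.33 in edgeR. Over all genes the 27 calls became 216 when the fold limit was dropped, 4 in edgeR and 16 where at least 100 summed counts were required. The members' median ratio became -0.010 with TMM and 0.018 with DESeq2 size factors, by the offset of the scaling. With TMM Mir411 (0.0046), Mir1193 (0.12), Mir539 (0.012), Mir382 (0.087), Mir377 (0.065) and Mir410 (0.090) changed sign. With DESeq2 size factors Mir379 (0.018), Mir411 (0.033), Mir1193 (0.15), Mir539 (0.040), Mir382 (0.11), Mir377 (0.093) and Mir410 (0.12) did. The log2 span over all members of 13.50 became 14.50 with pseudocount 0.5, 11.18 with pseudocount 5, 11.61 over members with 10 counts in both libraries (chosen after seeing the data) and 13.44 to 13.57 without either replicate, since Mir453 is at 0. The rho of level against position became 0.055 without Mir376c, Mir379 and Mir411, and -0.087 to -0.12 with a single replicate. No paired analysis was possible because there is a single group of samples, and no ratio exists with a library left out. Depth limits members under about 10 counts.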
